A study of Homo sapiens with 6 samples.

Results

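The genes described here carry glucose from the cell surface to mitochondrial pyruvate: glucose transporters, the enzymes of glycolysis, lactate dehydrogenases and lactate carriers, and the pyruvate dehydrogenase complex with its kinases and phosphatases. They were taken by symbol from a list of 39 genes, and all 39 were found among the 60419 genes of the deposited tables. RNA came from the human endometriotic line 12Z, which is immortalised, labelled wild type and was kept in medium with 10% charcoal-stripped serum. One group was treated for 12 h with 100 µg/mL of an extract of myrrh, a plant resin, diluted in DMSO, and the other with DMSO alone. Each group had 3 libraries, made from 1.5 µg of total RNA per library. All values come from a single cell line, and the labels do not say whether a group's libraries came from separate cultures. The p-values therefore reflect only how these libraries vary, and that variation may be technical.

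Glycolysis splits glucose into pyruvate in the cytosol. Pyruvate is then either reduced to lactate by lactate dehydrogenase and exported, or carried into mitochondria, where the pyruvate dehydrogenase complex turns it into acetyl-CoA. The complex is switched off by pyruvate dehydrogenase kinases and back on by phosphatases. Several steps are carried out by different isozymes from separate genes, and many of these genes are known targets of the hypoxia-inducible factors and of MYC. Endometriotic cells have been described as strongly glycolytic.

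Libraries held 22454783 to 24531493 estimated counts in the Myrrh group and 22592816 to 27588151 in the DMSO group. Epithelial keratins KRT8, KRT18 and KRT19 and mesenchymal markers such as VIM and COL1A1 were both abundant, while the epithelial cadherin gene CDH1 was too low to be tested. KRT7 and EPCAM were scarce, at means of 8.91 and 2.54 TPM in Myrrh and 5.84 and 1.12 TPM in DMSO. Of the 5 epithelial markers tested, these 2 were higher in Myrrh and the 3 keratins named first were lower. Summed TPM of 4 endothelial markers was at most 0.13 in the Myrrh libraries and 0.27 in the DMSO libraries, and the T cell gene CD3E was listed at 0 TPM. Summed TPM of 6 epithelial markers was 1162 to 1266 in Myrrh and 1574 to 1605 in DMSO, of 4 smooth muscle markers 23.1 to 24 in Myrrh and 38.2 to 39.8 in DMSO, and of 5 leukocyte markers, nearly all from CD68, 53.2 to 76.2 in Myrrh and 28.3 to 31.2 in DMSO. Of 6 mesenchymal markers 4 were lower and 2 higher, and their summed TPM was 1860 to 1979 in Myrrh and 3669 to 3733 in DMSO, with COL1A1 lower by a log2 fold change of -2.91. For comparison, 39.3% of all genes tested were higher and 39.1% lower at an adjusted p under 0.05. Mitochondrially encoded genes took 6.84% to 8.45% of the counts in the Myrrh libraries and 14% to 14.7% in the DMSO libraries, and the part of these shifts in the results below was not tested.

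The glucose transporters SLC2A3 and SLC2A1 and both hexokinases rose in the Myrrh libraries, while the lactate-forming isozyme LDHA, the enolases ENO2 and ENO3 and the kinases PDK2 and PDK3 fell. The abundant enzymes of the middle of the pathway, ALDOA, TPI1 and PGK1, did not pass the test. LDHA was 3.37-fold lower and its sister gene LDHB 1.24-fold higher in Myrrh, so that LDHB transcripts outnumbered LDHA transcripts in Myrrh and LDHA transcripts outnumbered LDHB transcripts in DMSO. Of the 39 genes, 38 passed the filter on low counts and were tested with edgeR's quasi-likelihood test. An adjusted p under 0.05 was reached by 14 higher and 19 lower genes, or 36.8% and 50% of those tested, where 39.3% of all 16395 genes tested were higher and 39.1% were lower. In either direction 86.8% of the 38 genes were called, against a background of 78.4%. A change of at least 2-fold was also reached by 2 higher and 7 lower genes, where the background was 11.3% higher and 18% lower. The groups did not overlap in CPM (counts scaled to a common library size with TMM factors) for 34 of the 38 genes, and 80.3% of all genes tested had groups that did not overlap. The median log2 fold change of the 38 genes was -0.16, beside -0.02 over all genes tested. In RNA from bulk cultures, fewer cells with a transcript and less transcript per cell cannot be told apart.

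**Figure D1:**
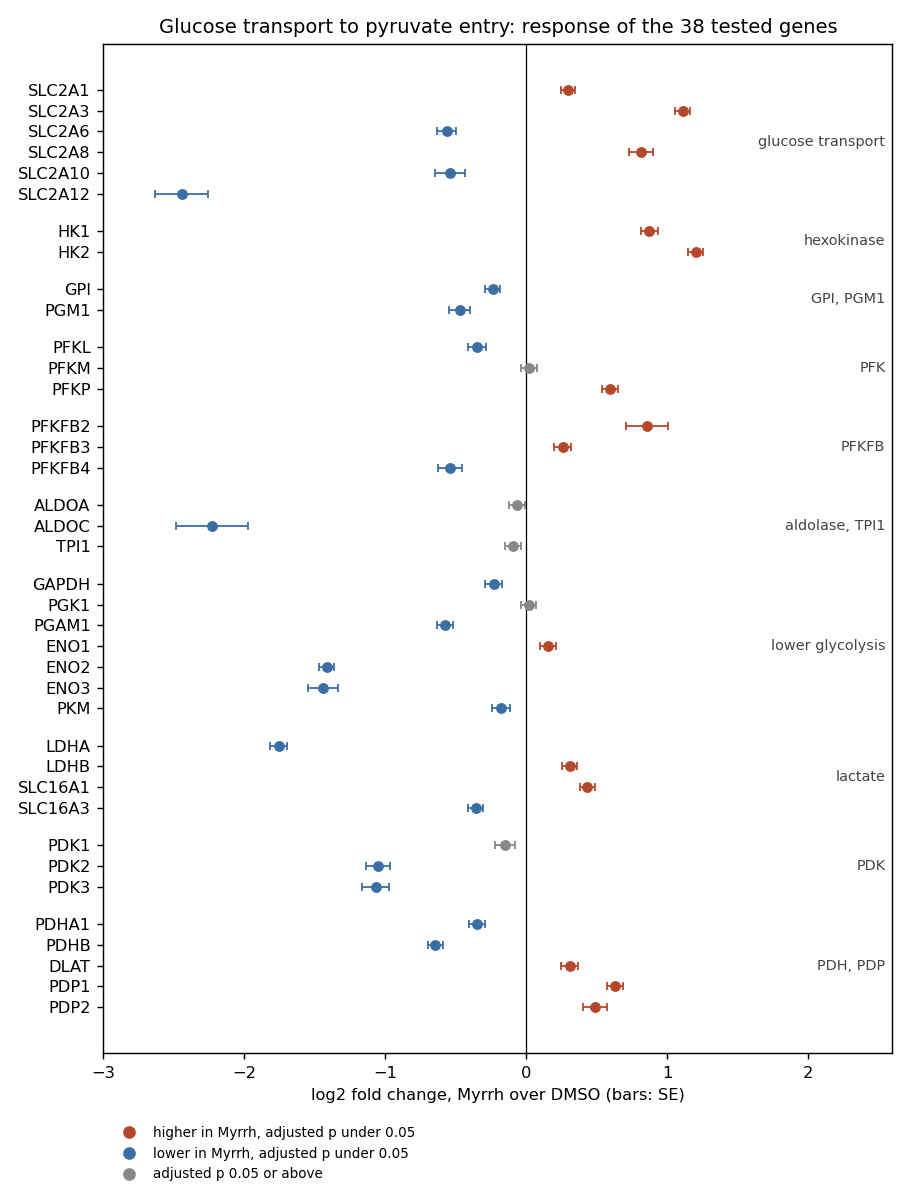
Log2 fold change of Myrrh over DMSO (points, with bars of 1 SE) for the 38 tested genes in pathway order, coloured by call at an adjusted p of 0.05. Both hexokinases and SLC2A3 sit to the right, and LDHA, ENO2, ENO3, ALDOC, SLC2A12, PDK2 and PDK3 lie beyond a log2 value of -1 on the left.

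The promoters of 4 of these genes are shown because LDHA and ENO2 had large decreases at high levels, HK2 had the largest increase, and LDHB moved against LDHA. Each line gives the 250 bases before a transcription start in RefSeq on GRCh38.p14, in the direction of transcription. Capitals mark ACGTG or GCGTG, the core of the hypoxia response element, on either strand. The palindrome CACGTG, the E-box bound by MYC and its relatives, contains that core. The windows are chr11:18394313-18394562 on the plus strand for LDHA, chr12:21657843-21658092 on the minus strand for LDHB, chr2:74834920-74835169 on the plus strand for HK2 and chr12:6914330-6914579 on the plus strand for ENO2.
LDHA promoter: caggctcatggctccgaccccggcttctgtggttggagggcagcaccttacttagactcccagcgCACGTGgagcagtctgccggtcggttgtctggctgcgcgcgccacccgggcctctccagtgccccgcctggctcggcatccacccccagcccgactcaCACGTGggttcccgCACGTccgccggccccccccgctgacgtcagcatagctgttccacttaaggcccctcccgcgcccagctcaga
LDHB promoter: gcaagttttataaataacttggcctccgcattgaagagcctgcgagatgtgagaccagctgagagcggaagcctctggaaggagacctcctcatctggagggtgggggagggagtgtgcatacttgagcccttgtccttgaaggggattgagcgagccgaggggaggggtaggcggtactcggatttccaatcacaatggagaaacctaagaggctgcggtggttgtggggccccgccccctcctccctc
HK2 promoter: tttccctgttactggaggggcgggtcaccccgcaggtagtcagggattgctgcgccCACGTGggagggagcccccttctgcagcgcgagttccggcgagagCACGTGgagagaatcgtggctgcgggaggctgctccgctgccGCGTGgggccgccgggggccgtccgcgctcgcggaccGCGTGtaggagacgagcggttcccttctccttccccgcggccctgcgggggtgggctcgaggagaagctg
ENO2 promoter: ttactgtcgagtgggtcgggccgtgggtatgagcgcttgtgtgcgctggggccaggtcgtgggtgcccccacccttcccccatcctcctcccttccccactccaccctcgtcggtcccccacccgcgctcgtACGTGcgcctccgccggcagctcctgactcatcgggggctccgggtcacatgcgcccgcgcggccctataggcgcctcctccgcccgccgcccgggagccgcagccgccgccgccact
The LDHA window held 3 such stretches and the HK2 window 4, in each case with 2 copies of CACGTG. The ENO2 window held 1 stretch and no CACGTG, and the LDHB window held none in the 250 bases shown. With the 50 bases after the start included, LDHB held 1 match to ACGTG or GCGTG. LDHA and HK2, the genes shown with CACGTG, were chosen for their fall and rise, so their opposite directions say nothing about the motif. Among all 66 RefSeq promoter windows (250 bases before to 50 after a start) of the 35 listed genes that have one, 62.1% held ACGTG or GCGTG, against 48.4% of all 35116 windows, and 13.6% held CACGTG against 7.26%. The listed genes' windows were also richer in G and C, with a median of 67.5% against 58.7% for all windows. TGATGNAA, a form of the ATF4 and C/EBP element, was in 3.03% of the listed genes' windows and 3.62% of all, and GAANNTTC, a pair of heat shock half-elements, in 1.52% and 6.77%. With 1 window taken per gene, ACGTG or GCGTG was in 65.7% of the 35 listed genes and 48.4% of all 27305 genes. Listed genes have more windows each than genes in general, and only 10 of the 14 genes that rose have one. Over any window, 9 of those 10 and 17 of 19 that fell held ACGTG or GCGTG, beside 52.4% of all 27305 genes. These matches are letters in the sequence and do not show binding.

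Of the 6 glucose transporter genes, 3 rose and 3 fell, where 39.3% of all genes tested were higher and 39.1% lower. In Myrrh the 3 that rose were the most abundant by TPM. SLC2A3, the high-affinity transporter GLUT3, had 190, 188 and 199 CPM in the Myrrh libraries, against 85.5, 86.6 and 94.6 CPM in the DMSO libraries. The lowest Myrrh library was far above the highest DMSO library, and the log2 fold change was 1.11 ± 0.05 (SE; adjusted p = 3.13e-16). SLC2A1, the basal transporter GLUT1, had 86.5, 86.0 and 93.6 CPM in Myrrh and 70.4, 72.9 and 73.1 CPM in DMSO, a smaller rise of 0.30 ± 0.05 without overlap. SLC2A8, an intracellular transporter, was nearly constant within Myrrh at 18.3, 18.2 and 18.2 CPM and had 10.1, 11.3 and 9.66 CPM in DMSO (0.82 ± 0.08). By TPM, a level per transcript length that can be compared between genes, SLC2A3 made up 50.3% ± 1.66 of the summed level of the 6 genes in Myrrh and 38.3% ± 0.323 in DMSO (SD, n = 3 each). The ratio of SLC2A3 to SLC2A1 was higher in every Myrrh library than in any DMSO library, and its mean log2 value in TPM was 0.73 in Myrrh and 0.23 in DMSO.

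The transporters that fell were SLC2A12, SLC2A6 and SLC2A10. SLC2A12, known as GLUT12, had 1.72, 0.941 and 1.08 CPM in Myrrh and 7.70, 6.59 and 6.31 CPM in DMSO, the largest decrease among the 38 genes at -2.44 ± 0.19 (adjusted p = 6.07e-12). These values rest on 41.1, 20.9 and 23.1 estimated counts in Myrrh, and 38.9% of the exonic bases of SLC2A12 lie under exons of TBPL1 on the opposite strand. TBPL1 had 2249 counts over the Myrrh libraries and 1427 over the DMSO libraries, and the sources used here do not state whether counting was stranded. SLC2A6, a transporter of lysosomes, had 23.4 to 25.6 CPM in Myrrh and 35.1 to 38.8 CPM in DMSO (-0.56 ± 0.07). SLC2A10, known as GLUT10, had 5.97 to 7.44 CPM in Myrrh and 9.41 to 10.1 CPM in DMSO (-0.54 ± 0.11). Neither gene's groups overlapped.

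Both hexokinases, which trap glucose in the cell as glucose 6-phosphate, rose. HK2, the inducible isozyme that binds mitochondria, had 181, 185 and 182 CPM in Myrrh, against 75.1, 81.9 and 80.9 CPM in DMSO. Its log2 fold change of 1.204 ± 0.05 was the highest among the 38 genes (adjusted p = 2.38e-17). HK1, the housekeeping isozyme, had 271, 259 and 299 CPM in Myrrh and 147, 149 and 156 CPM in DMSO (0.88 ± 0.06, adjusted p = 2.48e-13). In TPM, HK1 remained the more abundant, at 107 ± 11.2 in Myrrh and 57.3 ± 2.63 in DMSO, with HK2 at 46.3 ± 1.86 in Myrrh and 19.7 ± 0.9 in DMSO (SD, n = 3 each). HK2 made up 30.3% ± 1.84 of the summed level in Myrrh and 25.5% ± 0.747 in DMSO, and these shares did not overlap. The summed TPM of the step was 154 ± 12.4 in Myrrh and 77.0 ± 3.28 in DMSO, the highest ratio of the 10 steps at 1.995.

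The next enzymes, at the branch to glycogen and at the start of glycolysis proper, were lower. GPI, which interconverts glucose and fructose 6-phosphates, had 289, 296 and 308 CPM in Myrrh and 345, 353 and 355 CPM in DMSO (-0.24 ± 0.05). This direction was not found in TPM, where GPI was at 212 ± 9.4 in Myrrh and 206 ± 4.27 in DMSO. PGM1, which links glucose 6-phosphate to glycogen, had 23.5, 22.8 and 28.2 CPM in Myrrh and 34.9, 32.5 and 35.8 CPM in DMSO (-0.47 ± 0.07). Both genes' groups were separate in CPM, with replicate 3 the highest Myrrh library for each.

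Phosphofructokinase, the committed step of glycolysis, is built from L, M and P subunits, and its genes did not move together. PFKP, the platelet-type subunit, had 226, 214 and 242 CPM in Myrrh, against 149, 155 and 148 CPM in DMSO (0.59 ± 0.06, adjusted p = 2.21e-10). PFKL, the liver-type subunit, had 126, 123 and 148 CPM in Myrrh and 167.1, 174 and 164 CPM in DMSO (-0.35 ± 0.06), a call lost on the authors' log2(TPM + 1) values (-0.28, adjusted p = 0.129). PFKM, the muscle-type subunit, had overlapping groups of 71.3 to 83.7 CPM in Myrrh and 75.7 to 80.5 CPM in DMSO (0.02 ± 0.06, adjusted p = 0.763). PFKP made up 51.5% ± 2.61 of the summed TPM of the 3 genes in Myrrh and 38.8% ± 1.36 in DMSO. PFKL made up 31.0% ± 3.65 in Myrrh and 41.5% ± 2.15 in DMSO, so the leading subunit gene was PFKP in Myrrh and, by a small margin, PFKL in DMSO. PFKM shares 628 exonic bases with SENP1 on the opposite strand. Counts of SENP1 were higher in Myrrh (4202 against 2701 over 3 libraries each).

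The PFKFB enzymes set the level of fructose 2,6-bisphosphate, the activator of phosphofructokinase. PFKFB2 had 10.9, 7.26 and 11.7 CPM in Myrrh and 5.22, 5.31 and 5.95 CPM in DMSO (0.86 ± 0.15), with replicate 2 the lowest Myrrh library. Its log2 fold change was 1.04 without that library. PFKFB2 shares 315 exonic bases with YOD1 on the opposite strand, whose counts were also higher in Myrrh (3064 against 1644 over 3 libraries each). PFKFB3, the isozyme with the strongest kinase activity, had 55.0, 50.3 and 54.8 CPM in Myrrh and 42.1, 44.1 and 47.3 CPM in DMSO (0.26 ± 0.06), a call lost with library totals (0.12, adjusted p = 0.095). PFKFB4 moved the other way, with 11.8, 11.9 and 13.3 CPM in Myrrh and 18.2, 16.6 and 19 CPM in DMSO (-0.54 ± 0.08). Without overlap, the mean log2 TPM ratio of PFKFB4 to PFKFB3 was -1.72 ± 0.04 in Myrrh and -0.81 ± 0.12 in DMSO (SD, n = 3 each).

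**Figure D2:**
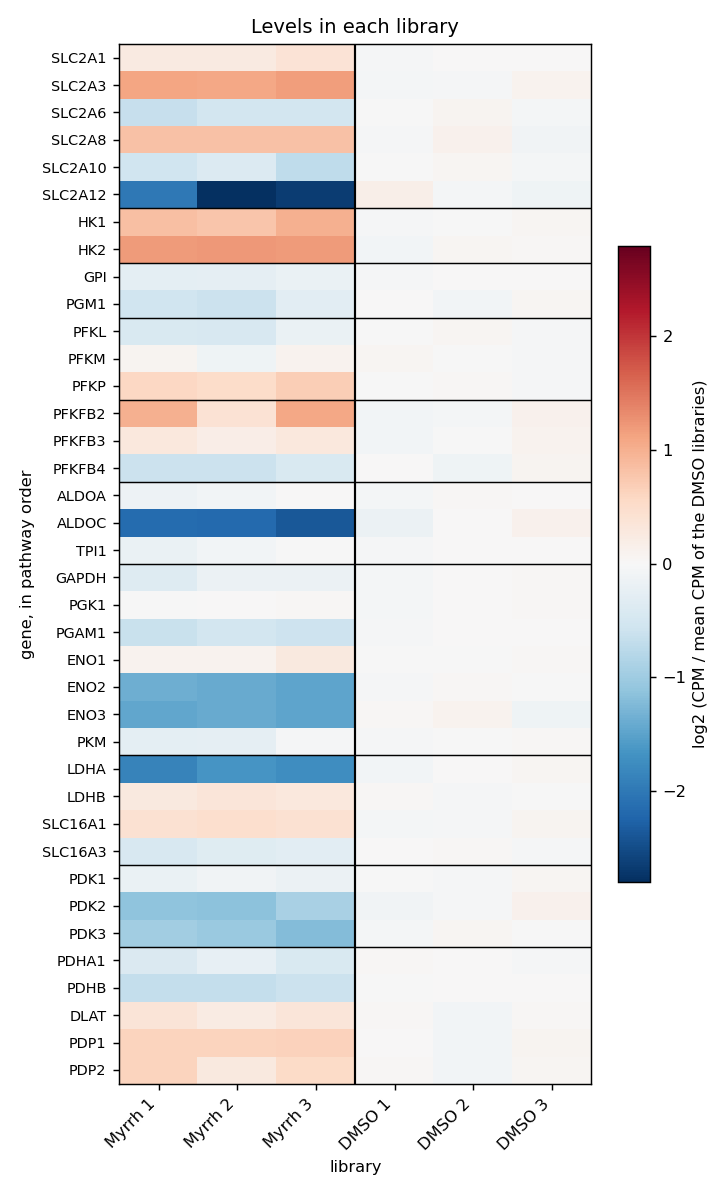
CPM of each tested gene in each library as log2 of its ratio to the mean of the DMSO libraries, with the 3 Myrrh libraries left of the 3 DMSO libraries and lines between pathway steps. The 3 Myrrh libraries share the same colour in most rows, and the abundant genes ALDOA, TPI1 and PGK1 are near white in all 6 columns.

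The abundant enzymes of the middle of glycolysis stayed within or close to the spread of the libraries. ALDOA, the main aldolase, had 1020, 1072 and 1136 CPM in Myrrh and 1086, 1157 and 1131 CPM in DMSO (-0.06 ± 0.06, adjusted p = 0.295). Of its exonic bases, 42.3% are shared with AC093512.2 on the same strand. AC093512.2 had 1232 counts over the Myrrh libraries and 2111 over the DMSO libraries. TPI1, which interconverts the triose phosphates, had 685, 744 and 773 CPM in Myrrh and 768, 787 and 788 CPM in DMSO (-0.09 ± 0.06, adjusted p = 0.142). When scaled by library totals instead of TMM factors, ALDOA and TPI1 were called lower (-0.21 and -0.23), and TPI1 also was in TPM (-0.14). PGK1, which makes the first ATP of the pathway, had 354, 359 and 365 CPM in Myrrh and 342, 357 and 365 CPM in DMSO (0.02 ± 0.05, adjusted p = 0.771), and with library totals it was called lower (-0.13, adjusted p = 0.029). ALDOC, the brain-type aldolase, was at a trace level of 0.545, 0.538 and 0.470 CPM in Myrrh and 2.19, 2.46 and 2.67 CPM in DMSO (-2.23 ± 0.26, adjusted p = 1.29e-08). Its TPM was 0.51 in Myrrh, against 1333 for ALDOA.

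GAPDH, which makes the NADH of the pathway and is widely used as a reference gene, was lower. It had 3449, 3989 and 3945 CPM in Myrrh and 4315, 4507 and 4522 CPM in DMSO (-0.23 ± 0.06, adjusted p = 0.00101). The groups did not overlap, and the direction was the same under every scaling tried. GAPDH made up 39.2% ± 1.41 of the summed TPM of the 39 genes in Myrrh and 40.7% ± 0.237 in DMSO, which overlapped (exact permutation test, two-sided, p = 0.3). PGAM1, phosphoglycerate mutase, fell further, with 213, 230 and 220 CPM in Myrrh and 323, 331 and 334 CPM in DMSO (-0.58 ± 0.05, adjusted p = 2.79e-10). PKM, pyruvate kinase, had 1400, 1417 and 1655 CPM in Myrrh and 1658, 1681 and 1721 CPM in DMSO (-0.18 ± 0.06, adjusted p = 0.0104). The highest Myrrh library lay just under the lowest DMSO library, and the call was lost without Myrrh replicate 1 (adjusted p = 0.063) or DMSO replicate 3 (0.059), and on the authors' log2(TPM + 1) values (-0.15, adjusted p = 0.073). PKM makes both the M1 and M2 enzymes by splicing, and counts per gene do not separate them.

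The 3 enolase genes parted. ENO2, the neuron-type enolase, had 112, 108 and 104 CPM in Myrrh, against 282, 294 and 287 CPM in DMSO. It was 2.67-fold lower in Myrrh (-1.41 ± 0.05, adjusted p = 2.25e-18). ENO3, the muscle-type enolase, had 4.70, 4.84 and 4.65 CPM in Myrrh and 13.1, 13.7 and 11.8 CPM in DMSO (-1.44 ± 0.11, adjusted p = 2.16e-12). ENO3 shares 111 exonic bases with the far more abundant PFN1 on the opposite strand, whose counts were also lower in Myrrh (56428 against 79692 over 3 libraries each). ENO1, the ubiquitous isozyme, had 1745, 1745 and 1968 CPM in Myrrh and 1611, 1624 and 1662 CPM in DMSO, a slight rise (0.16 ± 0.06, adjusted p = 0.0154). Leaving out Myrrh replicate 3 (0.11, adjusted p = 0.068), DMSO replicate 1 (0.14, adjusted p = 0.105) or DMSO replicate 2 (0.15, adjusted p = 0.076) ended that call. ENO1 made up 94.7% ± 0.525 of enolase TPM in Myrrh and 85.7% ± 0.337 in DMSO, and ENO2 4.70% ± 0.496 in Myrrh and 12.7% ± 0.239 in DMSO (SD, n = 3 each).

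**Figure D3:**
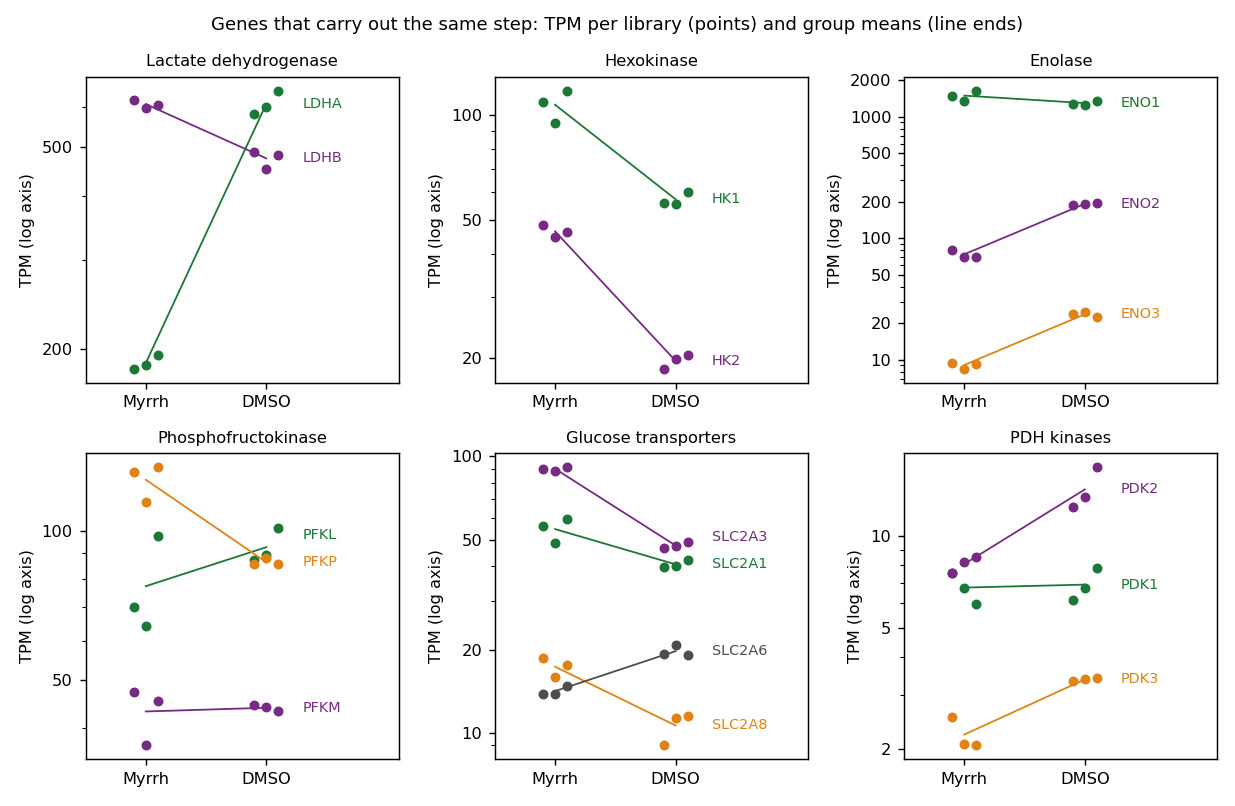
TPM per library (points, log axis) for genes that share a step, with Myrrh left of DMSO and lines joining the group means. The lines of LDHA and LDHB cross, as do those of PFKP and PFKL and of SLC2A8 and SLC2A6, while HK1 stays above HK2 and ENO1 above ENO2 in both groups.

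At the lactate step LDHA and LDHB moved in opposite directions. LDHA, whose enzyme favours making lactate from pyruvate, had 202, 232 and 219 CPM in Myrrh, against 701, 737 and 764 CPM in DMSO. The log2 fold change was -1.75 ± 0.06 (adjusted p = 2.68e-19), the lowest adjusted p of the 38 genes. LDHB, whose enzyme favours the reverse reaction, had 494, 519 and 503 CPM in Myrrh and 417, 398 and 407 CPM in DMSO (0.31 ± 0.05, adjusted p = 8.42e-06). In TPM, LDHA was at 188 ± 5.94 in Myrrh and 608 ± 32.7 in DMSO, and LDHB at 608 ± 11 in Myrrh and 475 ± 19.6 in DMSO (SD, n = 3 each). LDHA thus made up 23.6% ± 0.765 of the pair's TPM in Myrrh and 56.1% ± 1.6 in DMSO. The log2 ratio of LDHA to LDHB was -1.76, -1.69 and -1.64 in the Myrrh libraries and 0.25, 0.40 and 0.42 in the DMSO libraries. Its mean difference of -2.05 was, after that of ALDOC to ALDOA at -2.38, the largest of 12 pairs of sister genes compared. With 3 libraries against 3 the exact permutation test cannot go below 0.1, which is the value this pair reached (two-sided; 0.133 adjusted over the 12 pairs).

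The lactate carriers also parted. SLC16A1, the widely expressed carrier MCT1, had 230, 237 and 230 CPM in Myrrh and 166.5, 166.97 and 182 CPM in DMSO (0.43 ± 0.05, adjusted p = 4.68e-08). SLC16A3, the carrier MCT4 of lactate-exporting cells, had 195, 210 and 214 CPM in Myrrh and 266, 269 and 257 CPM in DMSO (-0.36 ± 0.05, adjusted p = 1.54e-06). It shares 482 exonic bases with CSNK1D on the opposite strand, whose counts were also lower in Myrrh (8924 against 15368 over 3 libraries each). BSG, the chaperone of both carriers, had a log2 fold change of -0.10 ± 0.06 and was not called (adjusted p = 0.098). The mean log2 TPM ratio of SLC16A3 to SLC16A1 was 0.98 ± 0.06 in Myrrh and 1.69 ± 0.08 in DMSO (SD, n = 3 each), so SLC16A3 remained the more abundant carrier transcript in both.

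Of the 4 kinase genes that switch off pyruvate dehydrogenase, 3 were tested, and of these 2 fell and none rose. Among all genes tested, 39.3% were higher and 39.1% lower. PDK2 had 9.60, 9.46 and 11.2 CPM in Myrrh, against 19.6, 20.4 and 22.5 CPM in DMSO (-1.05 ± 0.09, adjusted p = 2.85e-11). PDK3 had 7.84, 7.44 and 6.58 CPM in Myrrh and 14.8, 15.8 and 15.3 CPM in DMSO (-1.07 ± 0.09, adjusted p = 8.58e-11). Both were near 2-fold lower in CPM without overlap. Of the exonic bases of PDK2, 38.5% lie under exons of SAMD14 on the opposite strand. SAMD14 had 179 counts over the Myrrh libraries and 328 over the DMSO libraries. PDK1, the isozyme best known as a hypoxia target, had 18.5, 19.6 and 18.8 CPM in Myrrh and 20.8, 20.5 and 21.8 CPM in DMSO. Its groups did not overlap, but it missed the threshold (-0.15 ± 0.07, adjusted p = 0.0577), while it was called lower without Myrrh replicate 2 (-0.17, adjusted p = 0.041), with library totals (-0.29), and with a filter of 5 CPM or protein-coding genes alone (-0.25 each). PDK4 was not tested, with 0, 1 and 1 counts in Myrrh and 0, 1 and 2 in DMSO. These lie under a floor of 3 counts per library, so no fold is given. In TPM, PDK2 was at 8.08 ± 0.51 in Myrrh and 14.2 ± 2.28 in DMSO, and PDK1 was at 6.76 ± 0.81 in Myrrh and 6.91 ± 0.847 in DMSO (SD, n = 3 each). PDK3 was at 2.23 ± 0.277 TPM in Myrrh and 3.38 ± 0.0436 TPM in DMSO. The relative falls of PDK2 and PDK3 were smaller in TPM than in CPM.

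The complex itself and its phosphatases moved in different directions. PDHA1, the catalytic alpha subunit of the E1 enzyme, had 84.6, 96.1 and 83.6 CPM in Myrrh and 115, 112 and 109 CPM in DMSO (-0.35 ± 0.05, adjusted p = 2.12e-06). PDHB, its beta subunit, had 52.1, 52.1 and 54.3 CPM in Myrrh and 82.0, 82.9 and 82.6 CPM in DMSO (-0.64 ± 0.05, adjusted p = 1.76e-11). DLAT, the E2 core that takes up the acetyl group, rose instead, with 49.6, 45.1 and 48.9 CPM in Myrrh and 39.4, 36.8 and 39.7 CPM in DMSO (0.31 ± 0.06). PDP1, the phosphatase that reactivates the complex, had 60.7, 60.4 and 61.1 CPM in Myrrh and 39.2, 37.3 and 41.03 CPM in DMSO (0.63 ± 0.06, adjusted p = 1.28e-10). PDP2, the second phosphatase gene, had 28.05, 21.9 and 26.2 CPM in Myrrh and 18.5, 17.1 and 18.7 CPM in DMSO (0.49 ± 0.08). Transcripts of both phosphatases were thus higher and those of PDK2 and PDK3 lower, while both E1 subunits were lower.

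Summed by step, the transcript level was higher in Myrrh at the top of the pathway and lower at the bottom. Glucose transporters summed to 179 ± 8.21 TPM in Myrrh and 124 ± 3.29 TPM in DMSO, a ratio of 1.44. The 7 genes of lower glycolysis summed to 7760 ± 398 TPM in Myrrh and 8465 ± 214 TPM in DMSO, a ratio of 0.917. The lactate group summed to 1053 ± 20.7 TPM in Myrrh and 1346 ± 45.4 TPM in DMSO, a ratio of 0.782, and the kinases to 17.1 ± 0.546 TPM in Myrrh and 24.5 ± 3.17 TPM in DMSO, a ratio of 0.697. All 39 genes together held 1.21% ± 0.0519 of the estimated counts in Myrrh and 1.46% ± 0.0277 in DMSO, without overlap (exact permutation test, two-sided, p = 0.1, the smallest possible). Of the counts that were not mitochondrially encoded, the 39 genes held 1.31% ± 0.0576 in Myrrh and 1.70% ± 0.03 in DMSO. By TPM the share of the 39 genes was 1.23% ± 0.0552 in Myrrh and 1.33% ± 0.0308 in DMSO. The largest decreases in mean TPM were those of GAPDH, at -597, and LDHA, at -421, and the largest increases those of ENO1, at 199, and LDHB, at 132.

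**Figure D4:**
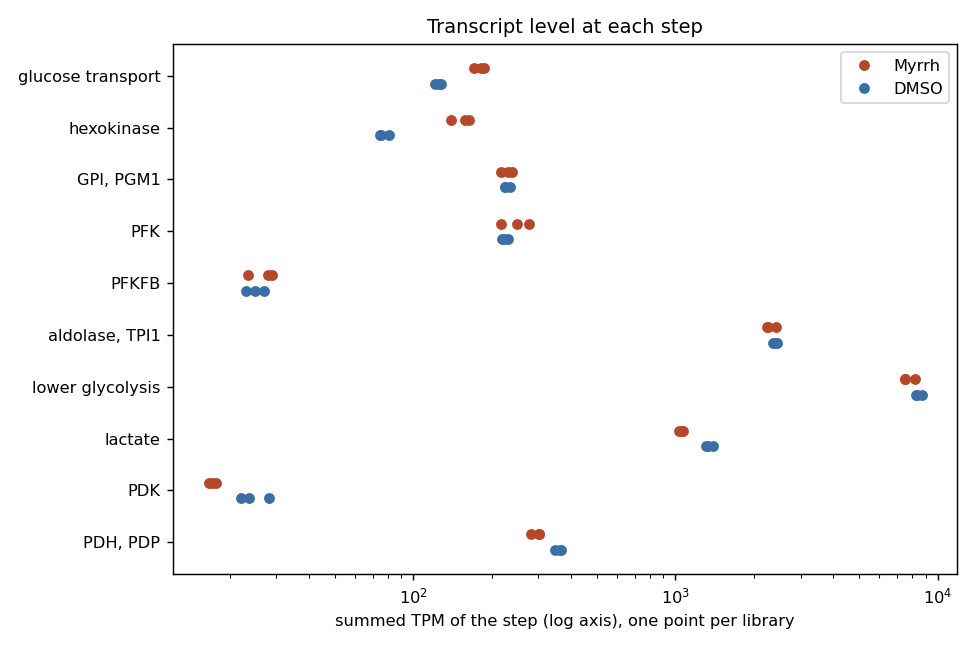
Summed TPM of each step, 1 point per library on a log axis, with Myrrh above DMSO in each row. Transport and hexokinase lie further right in Myrrh, lower glycolysis, lactate, PDK and PDH with PDP lie further left, and the ranges of the other 4 rows overlap.

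Among 29 other genes of glycolysis and glucose transport, 13 were tested, of which 3 were higher and 4 lower. Over all genes tested, 39.3% were higher and 39.1% lower. HKDC1, a hexokinase-like gene, rose most, with 33.5, 26.9 and 30.9 CPM in Myrrh and 5.13, 5.07 and 5.05 CPM in DMSO (2.58 ± 0.09, adjusted p = 8.42e-19). TIGAR, which lowers fructose 2,6-bisphosphate, had 35.6, 33.8 and 34.2 CPM in Myrrh and 10.6, 11.4 and 13.6 CPM in DMSO (1.54 ± 0.08, adjusted p = 1.49e-15). BPGM, which diverts 1,3-bisphosphoglycerate, rose less (0.42 ± 0.07). Of the lower genes, SLC2A5, SLC2A14 and GPD1 each averaged at most 1.05 CPM in either group. SLC2A14, a near-identical copy of SLC2A3, had means of 0.103 CPM in Myrrh and 1.05 CPM in DMSO, or 0.45% of the counts of SLC2A3 over all libraries. Of 6 tested genes out of 7 at pyruvate entry, 3 were higher and 2 lower, all by less than 2-fold. MPC1, a subunit of the mitochondrial pyruvate carrier, had 13.1, 13.9 and 11.2 CPM in Myrrh and 7.49, 7.63 and 7.82 CPM in DMSO (0.74 ± 0.10), and PDHX (0.48 ± 0.06) and PDPR (0.14 ± 0.05) also rose. DLD (-0.16 ± 0.05) and pyruvate carboxylase, PC (-0.47 ± 0.10), fell, but neither was called on log2 TPM, and DLD averaged 49.3 TPM in Myrrh and 48.6 TPM in DMSO. MPC2, the partner of MPC1, was not called (0.01 ± 0.06).

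Of 12 known regulators of these genes, 11 were tested, with 5 higher and 5 lower. The shares over all genes tested were 39.3% higher and 39.1% lower. HIF1A, the oxygen-sensitive subunit of the hypoxia-inducible factor, had 360, 322 and 384 CPM in Myrrh and 244, 226 and 259 CPM in DMSO (0.55 ± 0.06), and its relative EPAS1 rose by 0.89 ± 0.05. MYC, an activator of LDHA and HK2 in many cell types, had 131, 133 and 141 CPM in Myrrh and 47.7, 45.3 and 43.6 CPM in DMSO (1.57 ± 0.05). TXNIP, which brings glucose transporters in from the cell surface, had 43.9, 36.7 and 43.7 CPM in Myrrh and 517, 532 and 550 CPM in DMSO (-3.68 ± 0.07). ATF4 rose by 0.96 ± 0.06 and MLXIPL, at under 1.2 CPM in every library, by 1.10 ± 0.34, a call lost on log2(TPM + 1) (0.18, adjusted p = 0.197). The oxygen sensor EGLN1 (-0.35 ± 0.05), VHL (-0.22 ± 0.06, but -0.041 and not called on log2(TPM + 1)), MLXIP (-0.28 ± 0.06, but 0.38 on log2(TPM + 1)) and ARRDC4 (-0.16 ± 0.06) were lower. The call of ARRDC4 was lost on log2(TPM + 1) (adjusted p = 0.255), without a filter on low counts (0.080), and without DMSO replicate 1 (0.060) or 3 (0.076). ARNT (-0.05 ± 0.06) was not called but was lower with library totals (-0.19, adjusted p = 0.0072), and EGLN3 did not pass the filter. These values are transcript levels, and the activity of the factors was not measured.

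Copies of the listed genes held few counts. Processed pseudogenes and near-identical copies of a listed gene held at most 1.14% of that gene's counts, for LDHAP4 beside LDHA, and adding them changed no call. The mean transcript length that the authors' TPM implies (counts divided by TPM, relative to each library's median) differed by at least 0.2 on the log2 scale for 3 of 35 genes, beside 15.3% of 10741 genes. These were SLC2A3, at 0.25 in Myrrh relative to DMSO, PDK3, at -0.40, and GPI, at -0.22, and for them counts and TPM give different sizes of change.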

How the data were processed

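RNA-seq libraries of 12Z cells, 3 with myrrh extract and 3 with DMSO, were compared. Per the labels' protocols, libraries were made from total RNA with a TruSeq kit; the sources used here give neither poly(A) selection nor strand. The deposited tables hold 1 row per gene, as estimated counts and as log2(TPM + 1), made by the authors. The submitters' processing notes name STAR, RSEM 1.3.1 and GRCh38. RSEM divides reads that match several genes among them, and 29.7% to 30.3% of the counts above 0 were not whole.

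Estimated counts were rounded, filtered with filterByExpr (16395 genes kept), scaled with TMM factors (0.933 to 0.973 in Myrrh, 1.05 in DMSO) and tested with edgeR 4.0.16's quasi-likelihood F-test (robust, two-sided, R 4.3.3), and p-values were adjusted by Benjamini-Hochberg across every gene tested, with 0.05 as the threshold. SEs were obtained by dividing a log2 fold change by √F. The fit was tested on simulated data first. Ratios of sister genes and shares of libraries used exact permutation tests. PDK4/PDK2 was left out of the pairs because libraries at 0 give no ratio. limma 3.58.1 and DESeq2 1.42.0 were alternatives. The chi-square values between libraries of a group, 3.85 to 9.19 per degree of freedom, gave no pair that agreed within sampling noise. Positions, types and exon overlaps came from GENCODE 29 on GRCh38, promoters from RefSeq (GRCh38.p14), matched by symbol for 35 of 39 genes.

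The genes and lists were chosen with earlier results of these data known. All 39 genes are named. Other genes are named if they passed the threshold with at least a 2-fold change and a mean of at least 5 CPM, are a listed regulator or a copy of a listed gene. BSG, the other transport, pyruvate entry, pentose phosphate and gluconeogenesis genes named, and the markers named, were chosen after their values were seen. Some genes of these lists are not reported here.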

Additional observations from a re-analysis of the deposited data

How the results depend on the processing

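Over 18 alternative settings, 15 of 38 genes had the same direction and call throughout and 35 the same direction. GPI was at 0.040 on log2 TPM with either pseudocount. PFKM was at -0.12 with library totals, -0.079 with at least 5 CPM in 3 libraries, -0.076 with protein-coding genes alone, -0.032 and -0.033 on log2 TPM (pseudocounts 1 and 0.1), -0.14 after median-centring (chosen after seeing the data) and -0.011 (without Myrrh replicate 3) to 0.088 with 1 library left out. PGK1 was at -0.13 with library totals, -0.081 with 5 CPM, -0.078 with protein-coding genes alone, -0.071 after centring and -0.012 (without DMSO replicate 1) to 0.039 with 1 library left out. ARNT was at 0.085 and 0.089 on log2 TPM, but called lower with library totals (-0.19) and with 5 CPM or protein-coding genes alone (-0.15 each), and MLXIP at 0.38 (pseudocount 1), 0.40 (0.1) and 0.26 after centring. In CPM, PDK3/PDK2 differed by -0.024 and PDP1/PDP2 by 0.15; leaving out 1 library gave -0.25 to 0.15 for PDP1/PDP2. ENO1 lost its call in 7 settings besides the fold threshold, among them library totals (0.01). The cause was not tested.

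Testing against a fold threshold (glmTreat) left 7 higher and 8 lower genes, and 3472 higher and 4011 lower of all genes. At least 2-fold higher was 1 gene, with library totals, log2 TPM with either pseudocount and centring. At least 2-fold lower were 5 genes on log2 TPM with either pseudocount and after centring, and 6 with 5 CPM. Among all genes, at least 2-fold higher were 1138 with 5 CPM and 1114 after centring. At least 2-fold lower among all genes were 1645 with 5 CPM, 1447 on log2(TPM + 1), 1824 after centring and 1947 with protein-coding genes alone. The median of the 38 genes was -0.31 with library totals, -0.25 with 5 CPM (over 37 genes, without ALDOC), -0.26 with protein-coding genes alone and -0.085 on log2 TPM with either pseudocount. With library totals the median of all genes was -0.16. Leaving out 1 library gave 13 to 14 higher and 18 to 20 lower genes.

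Same-numbered libraries did not deviate together (r from -0.06 to 0.04). The replicate block gave 14 higher and 19 lower genes. With replicates paired, the share of counts on the 39 genes differed by -0.25 percentage points. The exact permutation test gave p = 0.25, the smallest value that this pairing allows. ALDOC and SLC2A12 rest on few counts in Myrrh.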

Other observations

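Further lists cover routes that branch from glycolysis, and 78.4% of all genes tested were called in either direction. Of 7 genes of the pentose phosphate pathway, all tested, 4 were higher, 1 lower and 2 not called by edgeR's quasi-likelihood test. PGD had a log2 fold change of 0.59 ± 0.05 (SE), RPE of 0.73 ± 0.05 and TALDO1 of 0.30 ± 0.05, while TKT, a transketolase, was at -0.24 ± 0.06. Of 8 genes of gluconeogenesis 3 were tested. PCK2 (0.54 ± 0.06) and G6PC3 (0.54 ± 0.05) were higher and SLC37A4 was lower (-0.67 ± 0.06).

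Of 17 glycogen genes, all tested, 6 were higher and 9 lower, beside 39.3% higher and 39.1% lower over all genes tested, and their median was -0.15. With 1 library left out, 7 to 8 were lower. PPP1R3C, a subunit that brings phosphatase to glycogen, averaged 59.4 CPM in Myrrh and 19.4 CPM in DMSO (1.61 ± 0.07), and PPP1R3B averaged 25.02 CPM in Myrrh and 12.0 CPM in DMSO (1.05 ± 0.09). The phosphorylase PYGB averaged 160 CPM in Myrrh and 79.2 CPM in DMSO (1.02 ± 0.06), and glycogenin GYG1 averaged 61.2 CPM in Myrrh and 30.4 CPM in DMSO (1.01 ± 0.06). The phosphorylase kinase subunit PHKA2 averaged 24.4 CPM in Myrrh and 56.1 CPM in DMSO (-1.20 ± 0.06).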
